A study of Mus musculus with 2 samples.

Results

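The 10 genes described here, Nrf1, Cox11, Coq10b, Prdx3, Bcl2, Mcl1, Bcl2l11, Xiap, Atg5 and Park7, have been reported as targets of the microRNA miR-181. They were chosen by name, and each matched 1 of the 32286 features counted in both libraries. The study treated Abca4 knockout mice, which lack the photoreceptor transporter whose loss causes Stargardt disease, and it asks what inhibition of miR-181a and miR-181b does to retinal cells. Per the series, 1 eye of each animal was injected under the retina with a vector carrying a miR-181a/b sponge (AAV2.8-Sponge.mir181) and the other eye with a control vector (AAV2.8-GFP), at 2 months of age, with collection 4 months later. The age attached to both samples is 4 months, which does not match that schedule. Cells of the optic cup were dissociated with papain and made into 1 single-cell library per vector (10x Genomics, 3' chemistry). All animals carried the Abca4 knockout, so no comparison with a wild-type retina was possible, and the number of animals behind each library was not stated by the labels, nor was the promoter of either vector. With 1 library per vector there is no replicate error. No test was therefore run, and every interval below is a 95% interval for counting error alone.

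A microRNA guides the silencing complex to messenger RNAs that pair with its seed, the bases near its 5′ end, mostly in the 3′ untranslated region (UTR), and the paired transcripts are then destabilised or translated less. A sponge is a transcript carrying many such sites, meant to occupy the microRNA so that its targets are released. In the retina, miR-181a and miR-181b are expressed in neurons, and their reported targets fall into a mitochondrial group (biogenesis, the respiratory chain, antioxidant defence and autophagy) and a cell death group (the BCL2 family and a caspase inhibitor). Because silencing can lower translation without lowering the transcript, transcript counts show only part of what a microRNA does.

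The mature microRNAs are printed because their shared seed defines what counts as a target site. The RefSeq sequences on GRCm38.p6 (the mm10 assembly) place miR-181a and miR-181b at chr1:137966468-137966490 and chr1:137966650-137966673 and again at chr2:38852741-38852763 and chr2:38853845-38853868, all on the plus strand. Both the miR-181c (chr8:84178924-84178945) and the miR-181d copy (chr8:84178759-84178781) lie on the minus strand. Capitals mark the seed, bases 2 to 8.
mmu-miR-181a-5p: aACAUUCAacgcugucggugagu
mmu-miR-181b-5p: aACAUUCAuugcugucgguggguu
mmu-miR-181c-5p: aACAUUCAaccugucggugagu
mmu-miR-181d-5p: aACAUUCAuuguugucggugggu
All 4 share the seed ACAUUCA, so a site found with it fits miR-181c and miR-181d as well as the microRNAs named on the sponge. Mature microRNAs carry no poly(A) tail and were not counted in these libraries. Gm4258, the annotated gene whose interval holds the chromosome 1 copies of miR-181a and miR-181b on the same strand, was counted and stood highest in unnamed cluster 9 (described below), at 671 and 890.4 CPM in the GFP-labelled and sponge-labelled libraries. It stood at 369.7 and 392 CPM in Müller glia, 120.4 and 48.5 CPM in retinal pigment epithelium (RPE), with 216 and 284 CPM in rods. How much mature microRNA these transcripts yield was not measured.

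Annotated 3′ UTRs (GENCODE M21, GRCm38) were searched on the transcribed strand for the reverse complement of the seed. An 8mer is TGAATGTA, a 7mer-m8 is TGAATGT, a 7mer-A1 is GAATGTA and a 6mer is GAATGT, with each match counted once as the longest form it reaches. Of 21022 genes with a 3′ UTR, 16.4% hold an 8mer or 7mer-m8 match in their longest one, and 21.0% when a 7mer-A1 is counted too. By the first rule Bcl2, Bcl2l11, Xiap and Atg5 hold a match, and the second adds Mcl1. Counting alternative 3′ UTRs adds Nrf1, and no share over all genes was taken for that wider rule. Sites of the 6 genes that hold a match of 7 or 8 bases in any annotated 3′ UTR follow, with the match in capitals, the flanking bases in lower case and the coordinates those of the match; for Bcl2 the 8mer and the 7mer-m8 are shown.
Bcl2, 8mer, chr1:106539830-106539837, minus strand: attataataatcaggacTGAATGTAgata
Bcl2, 7mer-m8, chr1:106710598-106710604, minus strand: aaagaaatccacagcagTGAATGTgtga
Bcl2l11, 8mer, chr2:128158548-128158555, plus strand: tcagtaaatatttgttgTGAATGTAaaca
Xiap, 7mer-m8, chrX:42105020-42105026, plus strand: gttcttcttgctctaatTGAATGTgtga
Xiap, 7mer-m8, chrX:42107043-42107049, plus strand: gcctaggactcaaggacTGAATGTtttc
Atg5, 7mer-m8, chr10:44364205-44364211, plus strand: tagcttgctgtccacatTGAATGTcaac
Atg5, 7mer-m8, chr10:44364277-44364283, plus strand: agattcaataataaagaTGAATGTtttc
Nrf1, 7mer-m8, chr6:30129579-30129585, plus strand: tttgggtttgccttgatTGAATGTtgat
Mcl1, 7mer-A1, chr3:95662532-95662538, plus strand: aggaatcaaatgactaaGAATGTAatag
Xiap and Atg5 each hold 2 copies of the 7mer-m8 match in their longest 3′ UTR, while Bcl2 and Bcl2l11 each hold 1 8mer there. The Nrf1 match and the Bcl2 7mer-m8 lie in a shorter alternative 3′ UTR (724 and 1942 bases), not in the longest one. Mcl1 holds only the weaker 7mer-A1 form and a pair of 6mers. The 3′ UTRs of Cox11, Coq10b, Prdx3 and Park7 (379, 899, 615 and 178 bases) hold none of the 4 motifs. Short 3′ UTRs seldom hold one: among genes whose 3′ UTR length is 80% to 125% of the member's, the share with an 8mer or 7mer-m8 is 1.94% for Park7, 4.61% for Cox11, 7.45% for Prdx3 and 12.9% for Coq10b. It is 43.9% for Xiap, 47.4% for Bcl2, 40.3% for Bcl2l11 and 16.3% for Atg5. Of the 4 genes with no UTR match, Cox11 holds a 7mer-m8 in its coding sequence, in exon 4 at coding base 746 of 828, shown because sites outside UTRs have been described for microRNAs.
Cox11, coding 7mer-m8, chr11:90644470-90644476, plus strand: agaagatccaagaatggTGAATGTcgac
A match is a description of letters, and its absence says only that these letters are not in the annotated window.

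**Figure D1:**
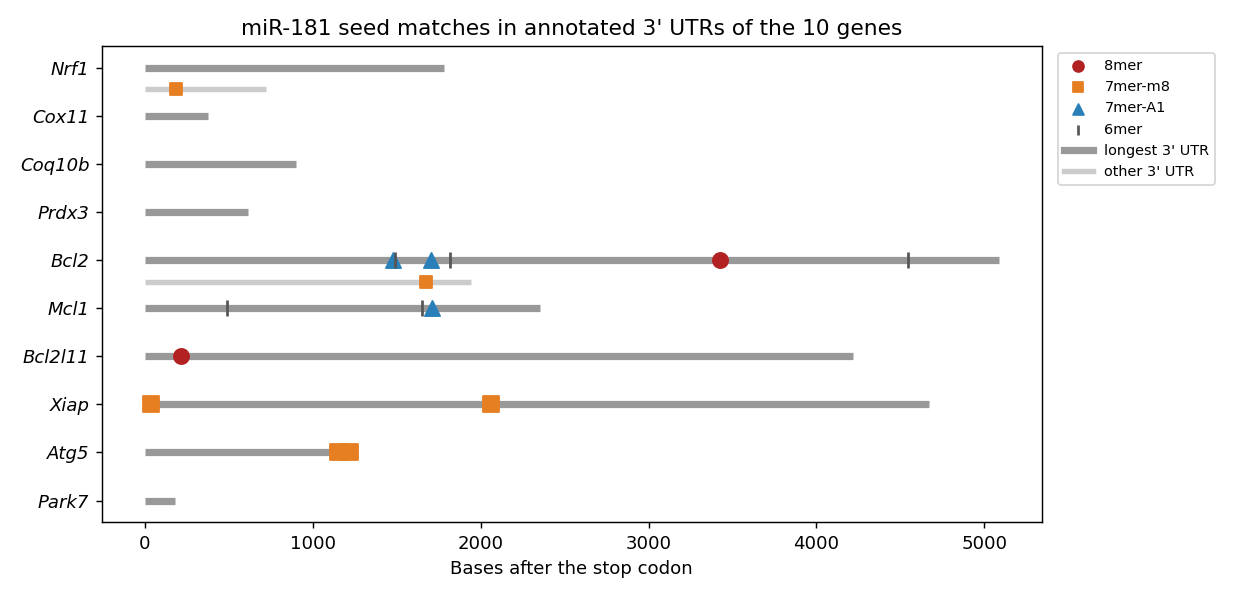
Positions of miR-181 seed matches along the annotated 3′ UTRs of the 10 genes, in bases after the stop codon. Bars are the longest 3′ UTR (dark) and an alternative one that holds a further match (light), and marks are the 4 kinds of match; Cox11, Coq10b, Prdx3 and Park7 have none.

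The library labelled GFP held 39461 barcodes and 123040365 unique molecular identifiers (UMIs), and the sponge-labelled library 23267 barcodes and 132067896 UMIs, of which 39285 and 23200 cells passed the filters. eGFP transcripts were found nearly exclusively in the sponge-labelled library, in 145 of 472 RPE cells against 7 of 992 in the GFP-labelled library, so the eGFP counts go against the label GFP, and each direction below rests on the labels alone. The sources used here do not state whether the sponge construct carries eGFP too. Abca4 transcripts stood at 134 CPM in rods of both libraries, and a 3′ tag outside the deleted part checks nothing. The libraries share 287 of the kept barcodes. Clusters were named only where fixed markers agreed, as resembling a class, which left 36.2% and 36.7% of cells unnamed. The genes were followed in 13 named classes and in cluster 9, an unnamed cluster in which amacrine markers scored highest and which is led by Galntl6, Snhg11 and Lingo2. Depth moved with the library in most classes. Median UMIs per cell were 2651 and 8615 in Müller glia, 5828 and 23179 in ocular surface epithelium, and 6319 and 4193.5 in RPE, for the GFP-labelled and sponge-labelled libraries. Its part in the ratios below was not tested, other than by thinning cells to 1000 UMIs.

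Levels are UMI counts summed over the cells of a class in a library and scaled to counts per 1000000 of that sum (CPM). A ratio is the log2 of the sponge-labelled library over the GFP-labelled library, given where the libraries together held at least 20 counts of the gene. Taken over the 14 classes, 99 of 139 measured ratios of the 10 genes were above 0, where 49.6% of all measured gene by class ratios were. Their median was 0.18, against -0.01 for all genes. The counting interval lay wholly above 0 for 53 of them and wholly below 0 for 18. The share of all genes' ratios that pass this interval rule was not counted, so these counts have no background beside them. Of the 139, 21 were at least 1.5-fold higher in the sponge-labelled library (12.2% of all genes' ratios) and 10 at least 1.5-fold lower (18.7%). The genes differed among themselves: Coq10b was above 0 in 14 of 14 classes, Atg5 in 13, Park7 in 12, Nrf1 and Bcl2 in 11, Cox11 in 10, Prdx3 in 10 of the 13 where it was measured, and Mcl1 and Bcl2l11 in 8. Xiap was above 0 in only 2 of 14. By class, 9 of 10 genes were above 0 in rods (56.9% of all genes were) and in Müller glia (54.4%). In RPE it was 6 of 10, beside 37.9% of all genes. In cone bipolar cells it was 4 of 10, beside 54%. A ratio in parentheses below is followed by its interval, and a pair of CPM values gives the GFP-labelled library first.

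**Figure D2:**
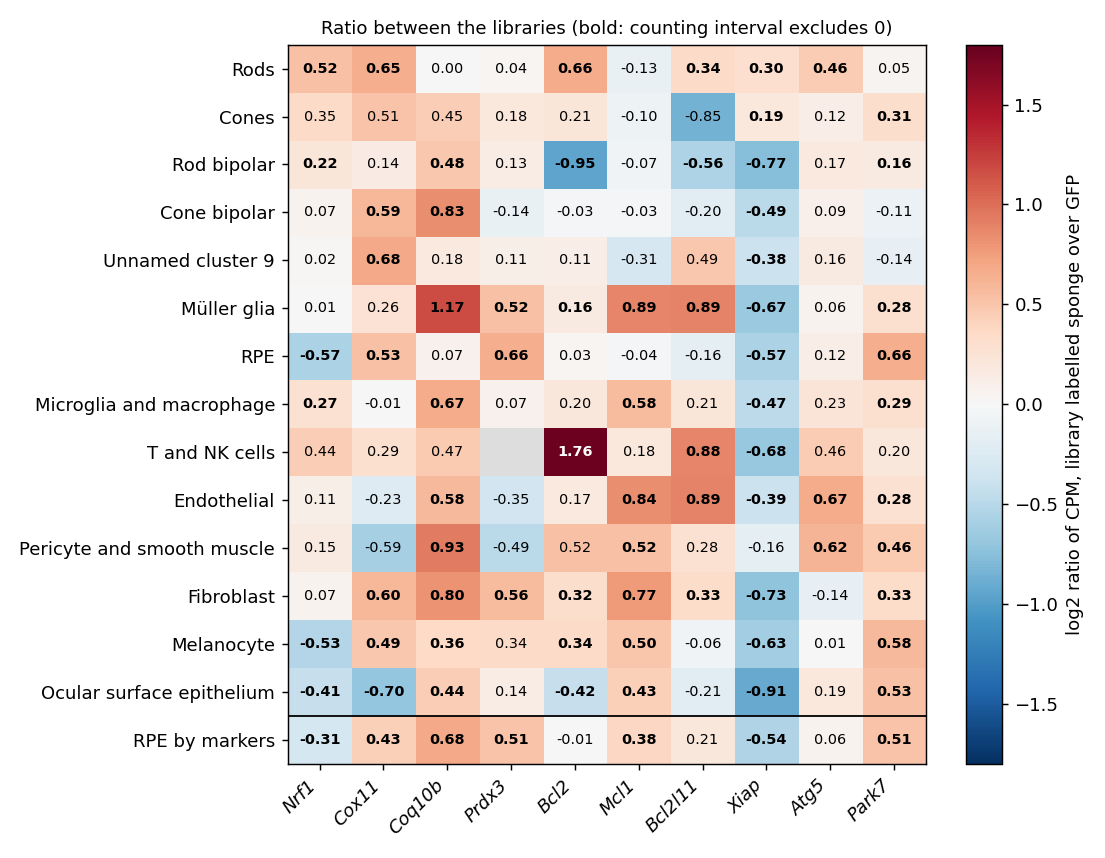
Log2 ratio of CPM, sponge-labelled over GFP-labelled library, for each gene (columns) in each class (rows); grey is a value under 20 counts, and bold numbers have a 95% counting interval that excludes 0. Coq10b is at or above 0.00 in every class, and Xiap is below 0 in all but rods and cones.

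Nuclear respiratory factor 1 (Nrf1; ENSMUSG00000058440, chr6:30047988-30153458) is a transcription factor that switches on nuclear genes for mitochondrial proteins. Its level ran from 46.1 to 77.3 CPM (median 63.0) over the 14 classes in the GFP-labelled library and from 31.0 to 111 CPM (median 69.8) in the sponge-labelled library. Rods were highest and RPE lowest in both. In rods it stood at 77.3 CPM (71.4 to 83.6) in the GFP-labelled library and 111 CPM (106 to 117) in the sponge-labelled library, a log2 ratio of 0.52 (0.39 to 0.66). In RPE it stood at 46.1 CPM (41.3 to 51.2) in the GFP-labelled library and 31.0 CPM (27.1 to 35.4) in the sponge-labelled library, a log2 ratio of -0.57 (-0.82 to -0.32). The intervals of the libraries do not overlap in either class, and the directions are opposite. The RPE value changed sign with thinning: with each cell thinned to 1000 UMIs it was 0.19, while the rod value was 0.46. Finer clusters, looked at after seeing the data, divide the RPE cells into 817 and 162, with a ratio of -0.58, -0.87 to -0.29, and 172 and 308 cells, with -0.25, -1.03 to 0.69, of the GFP-labelled and sponge-labelled libraries. Median depth was 7312 and 24912.5 UMIs in the first of these sets and 1811 and 2170 UMIs in the second. The finer cluster that holds the second set was led among others by eGFP, Trf, Ly6a, Ubd and Iigp1. Melanocytes (-0.53, -0.81 to -0.26) and ocular surface epithelium (-0.41, -0.60 to -0.21) had ratios below 0 as RPE did, while rod bipolar cells (0.22, 0.06 to 0.39) and the microglia and macrophage class (0.27, 0.03 to 0.51) lay above 0 as rods did, though the rod bipolar value was -0.13 under a stricter filter on cells and the microglia and macrophage value -0.042 as a mean over cells. In the other 8 classes the interval held 0. Along the order of classes, 13 of 13 neighbouring pairs had overlapping intervals in the GFP-labelled library and 12 of 13 in the sponge-labelled library. Neighbours in an order sorted by level are the closest levels. Here and below, their overlap therefore shows only that the exact order is uncertain. Over the 28 class and library levels, the genes most like Nrf1 by Pearson correlation of log2(CPM + 1) were Rbm5 (r = 0.918), Fam193a (0.916) and Ap4e1 (0.892), among 7290 genes compared. These points come from only 2 libraries and share their depth.

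**Figure D3:**
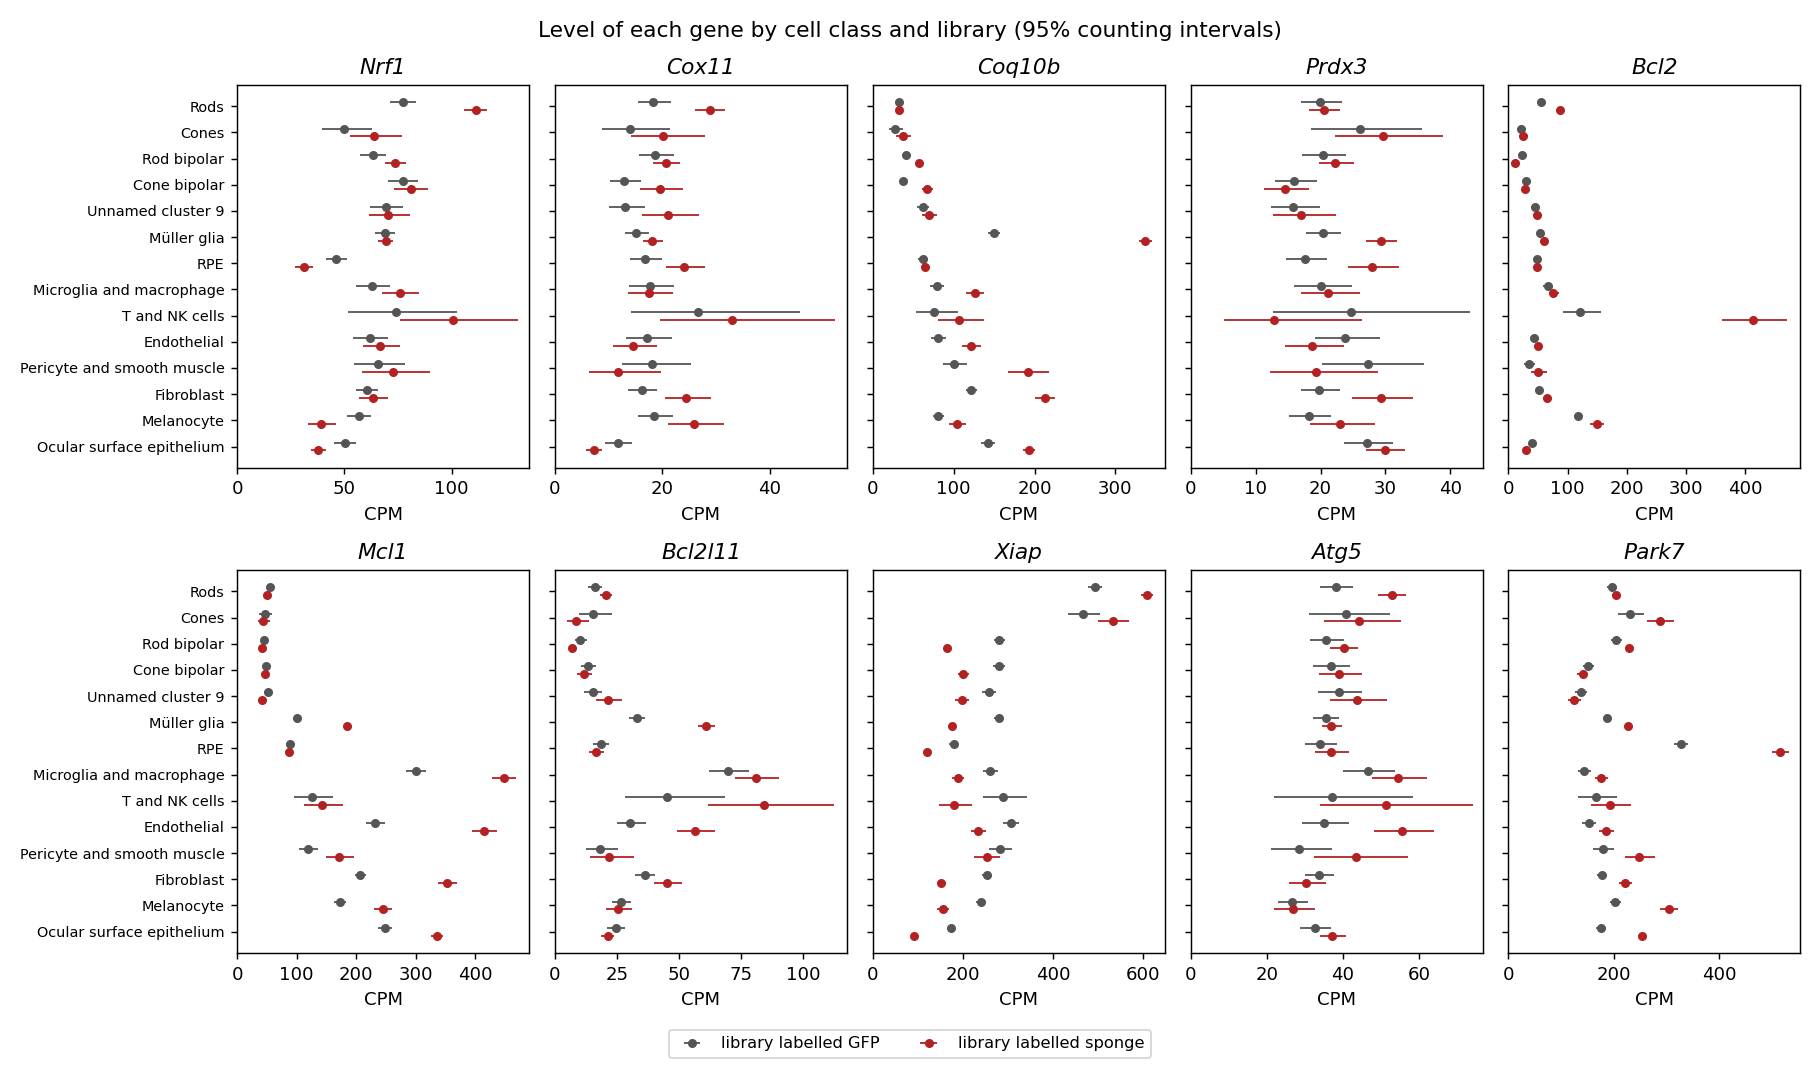
Level of each gene in CPM (horizontal axes, each from 0) in each class of the GFP-labelled library (grey) and the sponge-labelled library (red), with 95% Poisson counting intervals. Xiap is highest in rods and cones, Mcl1 in the microglia and macrophage class, Park7 in RPE, Coq10b in Müller glia, and Bcl2 in T and NK cells.

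Cox11 (ENSMUSG00000020544, chr11:90638173-90644931), which delivers copper to cytochrome c oxidase, is a low-count gene, at 11.6 to 26.7 CPM (median 16.9) over the classes of the GFP-labelled library and 7.19 to 32.9 CPM (median 20.4) over those of the sponge-labelled library. In rods it stood at 18.3 CPM (15.5 to 21.5) in the GFP-labelled library and 28.8 CPM (26.1 to 31.6) in the sponge-labelled library, a log2 ratio of 0.65 (0.38 to 0.93). In RPE it stood at 16.7 CPM (13.9 to 19.9) in the GFP-labelled library and 24.1 CPM (20.6 to 28.0) in the sponge-labelled library, a log2 ratio of 0.53 (0.19 to 0.87). The levels of the libraries do not overlap in either class. Fibroblasts (0.60, 0.25 to 0.95), cone bipolar cells (0.59, 0.15 to 1.04), melanocytes (0.49, 0.10 to 0.88) and cluster 9 (0.68, 0.15 to 1.21) also had intervals above 0. Ocular surface epithelium was the class with the interval below 0, at 11.6 and 7.19 CPM in the GFP-labelled and sponge-labelled libraries (-0.70, -1.13 to -0.26). With each cell thinned to 1000 UMIs the ratio turned to 0.40 in ocular surface epithelium and to -0.14 in cluster 9. All 13 neighbouring pairs of classes overlapped in each library. Its nearest genes by level included Maz (r = 0.806) and Ormdl1 (0.722), both lower correlations than those of Nrf1.

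Coq10b (ENSMUSG00000025981, chr1:55052770-55072702) encodes a mitochondrial protein that binds coenzyme Q, the lipid that carries electrons between respiratory complexes. Its ratio was the highest of the 10 genes in Müller glia, the radial glia of the retina, where it stood at 149.6 CPM (143 to 157) in the GFP-labelled library and 337 CPM (329 to 345) in the sponge-labelled library. The log2 ratio there was 1.17 (1.09 to 1.25), and the intervals lie far apart. The Müller class joins clusters that hold unlike shares of the libraries: cluster 3 (2845 cells of the GFP-labelled library and 1105 of the sponge-labelled library), cluster 8, led among others by Gfap and Lcn2, (1091 and 933) and cluster 24 (12 and 337). Cluster 24 was led among others by Ly6a, Iigp1, Igtp and Gbp4. In cluster 3 alone Coq10b stood at 81.2 and 145 CPM (0.84, 0.70 to 0.98), and in cluster 8 alone at 277 and 545 CPM (0.98, 0.88 to 1.07), for the GFP-labelled and sponge-labelled libraries with the log2 ratio and its interval in parentheses. Both clusters had intervals above 0, at somewhat smaller ratios than the joined class. Cluster 24 alone stood at 287 and 282 CPM (-0.08, -0.78 to 0.85), with 12 cells behind the first value. Coq10b itself was higher in cluster 8 than in cluster 3 of both libraries. Pericytes and smooth muscle (100.4 and 192 CPM), cone bipolar cells (37.9 and 67.4 CPM), fibroblasts (122 and 213 CPM) and the microglia and macrophage class (79.5 and 126 CPM) followed, with log2 ratios of 0.93, 0.83, 0.80 and 0.67. Endothelial cells had 81.1 and 122 CPM, rod bipolar cells 41.0 and 57.5 CPM, ocular surface epithelium 142 and 193 CPM and melanocytes 81.0 and 104 CPM. All of these 9 classes had intervals above 0.

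In the other 5 classes, photoreceptors and RPE among them, the interval of Coq10b held 0. Rods had 32.5 and 32.6 CPM of Coq10b, a log2 ratio of 0.00 (-0.22 to 0.23), and RPE had 61.8 and 65.1 CPM, a ratio of 0.07 (-0.11 to 0.26). Cones (27.4 and 37.5 CPM), T and NK cells (76.0 and 106 CPM) and cluster 9 (61.6 and 69.7 CPM) were the remaining classes. Rods and cones were at the low end of the order and Müller glia at the top in both libraries. The genes whose levels were most like Coq10b were Irf1 (r = 0.920), a transcription factor of the interferon response, and Jund (0.893) and Junb (0.890), subunits of the AP-1 factor. Beside the Coq10b ratio in Müller glia, Irf1 stood at 114 and 275 CPM and Junb at 565 and 1516 CPM. Junb is among the immediate early genes that respond to tissue dissociation, and the part of that response in the Coq10b ratio was not tested. In RPE, Junb stood at 254 and 490.4 CPM and Irf1 at 26.6 and 66.8 CPM, beside the Coq10b ratio of 0.07. How these genes are related was not tested in either class.

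Peroxiredoxin 3 (Prdx3; ENSMUSG00000024997, chr19:60864051-60874556) removes hydrogen peroxide inside mitochondria. It was a low-count gene with a flat profile, at 15.8 to 27.3 CPM (median 20.2) in the GFP-labelled library and 12.8 to 29.9 CPM (median 21.7) in the sponge-labelled library, and all 13 neighbouring pairs of classes overlapped in both. Its interval lay above 0 in RPE, at 17.7 CPM (14.8 to 21.0) in the GFP-labelled library and 27.9 CPM (24.2 to 32.1) in the sponge-labelled library (0.66, 0.33 to 0.99), in fibroblasts (0.56, 0.24 to 0.88) and in Müller glia (0.52, 0.31 to 0.75). In Müller glia the difference was found in cluster 8, at 18.7 and 31.6 CPM (0.75, 0.38 to 1.14), and not beyond counting error in cluster 3, at 21.3 and 23.5 CPM (0.14, -0.17 to 0.45). The other 10 measured classes had intervals that held 0, and T and NK cells were under the minimum count. Psmc5, a proteasome subunit, had the level most like Prdx3 (r = 0.783).

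Park7 (ENSMUSG00000028964, chr4:150897133-150914437) encodes DJ-1, a redox-sensitive protein that guards mitochondria and whose loss causes inherited parkinsonism. It was highest in RPE in both libraries, at 327 CPM (314 to 340.1) in the GFP-labelled library and 516 CPM (499 to 533) in the sponge-labelled library. The log2 ratio in RPE was 0.66 (0.58 to 0.73), the highest of its 14 classes. Within the finer RPE clusters it was 0.73, 0.64 to 0.81 and 0.45, 0.21 to 0.71. Its interval also lay above 0 in melanocytes (203 and 304 CPM, ratio 0.58, 0.47 to 0.70), ocular surface epithelium (175 and 254 CPM, ratio 0.53, 0.44 to 0.62), pericytes and smooth muscle (0.46), fibroblasts (0.33), cones (0.31), the microglia and macrophage class (0.29), endothelial cells (0.28), Müller glia (0.28) and rod bipolar cells (0.16). It thus had intervals above 0 in 10 of 14 classes and below 0 in none, more classes than any of the other 9 genes. Whether an interval excludes 0 depends on the counts, and Park7 is a high-count gene here. Its median ratio over the classes was 0.29, below those of Coq10b (0.48), Cox11 (0.39) and Mcl1 (0.31) and above those of the other genes. Rods had 197 and 203 CPM and cluster 9 had 137 and 124 CPM, within counting error. Within Müller cluster 3 it stood at 175 and 185 CPM (0.08, -0.02 to 0.19) and within cluster 8 at 209.7 and 266 CPM (0.34, 0.23 to 0.46). The genes most like Park7 by level were Timm13 (r = 0.937), a chaperone of mitochondrial import, Bod1 (0.928) and Dctn3 (0.927), and in RPE Timm13 stood at 156 and 213 CPM. Park7 has no seed match in its 178-base 3′ UTR.

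Atg5 (ENSMUSG00000038160, chr10:44268358-44364291), which joins Atg12 to extend the autophagosome membrane, carries a pair of 7mer-m8 matches near the end of its 3′ UTR. Its levels were even across classes, 26.7 to 46.5 CPM (median 35.5) in the GFP-labelled library and 26.9 to 55.6 CPM (median 41.8) in the sponge-labelled library. The interval lay above 0 in 3 classes: endothelial cells, with 35.0 CPM (29.2 to 41.5) in the GFP-labelled library and 55.6 CPM (48.2 to 63.8) in the sponge-labelled library (0.67, 0.34 to 1.0), rods, with 38.2 and 52.7 CPM (0.46, 0.27 to 0.66), and pericytes and smooth muscle, with 28.4 and 43.5 CPM (0.62, 0.03 to 1.20). The ratio was above 0 in 13 of 14 classes, fibroblasts being the exception at -0.14 (-0.43 to 0.13). In the 11 classes other than those 3, the libraries did not differ beyond counting error, and in RPE the ratio was 0.12 (-0.13 to 0.38). Smad2 (r = 0.745) had the level most like Atg5, the lowest such correlation of the 10 genes.

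Bcl2 (ENSMUSG00000057329, chr1:106538178-106714274), the founding inhibitor of mitochondrial cell death, holds an 8mer and has the longest 3′ UTR of the 10 genes (5086 bases). It was highest in T and NK cells, at 121 CPM (92.3 to 156) in the GFP-labelled library and 413 CPM (361 to 471) in the sponge-labelled library, a log2 ratio of 1.76 (1.35 to 2.21) that rests on 180 and 92 cells. How T and NK cells were mixed in each library was not measured. This was the highest ratio among the 139, and the intervals are far apart. In melanocytes it stood at 118 CPM (110.3 to 127) in the GFP-labelled library and 149.6 CPM (138 to 162) in the sponge-labelled library (0.34, 0.18 to 0.49). The melanocyte value turned to -0.14 with cells assigned by their marker score, and to -0.18 with classes named anew from finer clusters. That second melanocyte class is not a split of the same cells. It also takes in a cluster led by Grem1 and Gpnmb, with 1256 cells of the GFP-labelled and 746 of the sponge-labelled library. In rods it stood at 55.0 CPM (50.1 to 60.4) in the GFP-labelled library and 87.2 CPM (82.5 to 92.1) in the sponge-labelled library (0.66, 0.51 to 0.82), again with no overlap. Rod bipolar cells went the other way, at 22.2 CPM (18.9 to 25.9) in the GFP-labelled library and 11.5 CPM (9.69 to 13.6) in the sponge-labelled library, a ratio of -0.95 (-1.29 to -0.61). That class is 1 cluster here, but finer clustering, looked at after seeing the data, divides its cells unequally by library. A cluster of 2651 cells of the GFP-labelled and 629 of the sponge-labelled library had 23.2 and 26.0 CPM (0.17, -0.23 to 0.56), and one of 277 and 1216 cells had 17 and 5.97 CPM (-1.54, -2.36 to -0.57). The lower ratio is thus seen in the second cluster and not beyond counting error in the first. Ocular surface epithelium was also lower (40.5 and 30.3 CPM, ratio -0.42, -0.64 to -0.20). Fibroblasts (0.32, 0.11 to 0.52) and Müller glia (0.16, 0.02 to 0.31) were above 0, although in Müller cluster 8 alone Bcl2 stood at 59.9 and 52.4 CPM (-0.19, -0.42 to 0.04). In RPE it stood at 47.8 and 48.9 CPM, a ratio of 0.03 (-0.19 to 0.25), and in cones, cone bipolar cells, cluster 9, endothelial cells, pericytes and the microglia and macrophage class the interval also held 0. In T and NK cells Sh3kbp1, the gene most like Bcl2 by level (r = 0.893), stood at 216 and 419 CPM.

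Mcl1 (ENSMUSG00000038612, chr3:95658788-95663176), a short-lived BCL2 relative that holds back the same pathway, was lowest in the neuronal classes of both libraries. The microglia and macrophage class had 300.5 CPM (284 to 318) in the GFP-labelled library and 448 CPM (428 to 469) in the sponge-labelled library, a log2 ratio of 0.58 (0.47 to 0.68). Endothelial cells had 232 CPM (217 to 248) in the GFP-labelled library and 415 CPM (394 to 437) in the sponge-labelled library (0.84, 0.72 to 0.96) and fibroblasts 207 and 353 CPM (0.77, 0.68 to 0.86). The levels in these 3 classes lay apart between the libraries. The neuronal classes sat at 44.5 to 54.6 CPM in the GFP-labelled library and 41.6 to 49.8 CPM in the sponge-labelled library, with ratios from -0.31 to -0.03 whose intervals held 0 in rods, cones, both bipolar classes and cluster 9. RPE gave 89.6 and 87.4 CPM (-0.04, -0.20 to 0.13). The finer RPE clusters described for Nrf1 were unlike each other. The one of 817 and 162 cells had 92.1 and 82.1 CPM (-0.16, -0.35 to 0.02). The one of 172 and 308 cells had 48.8 and 96.6 CPM (0.95, 0.34 to 1.70), from 21 and 241 counts. Müller glia gave 100.3 and 185 CPM (0.89, 0.79 to 0.98), but the values differed by cluster. Cluster 3 alone stood at 56.4 and 60.6 CPM (0.10, -0.09 to 0.29), and cluster 8 alone at 181 and 257 CPM (0.51, 0.38 to 0.63). Both are lower than the ratio of the joined class, in which cluster 8 and cluster 24 make up a larger share of the cells of the sponge-labelled library. The ocular surface epithelium (0.43, 0.35 to 0.51), melanocytes (0.50, 0.38 to 0.63) and pericytes and smooth muscle (0.52, 0.24 to 0.80) also had intervals above 0. Kdelr2 (r = 0.939) and Tmed5 (0.935) were among the genes whose levels were most like Mcl1.

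Bcl2l11 (ENSMUSG00000027381, chr2:128126038-128162547) encodes BIM, which opposes BCL2 and MCL1 and starts mitochondrial cell death, and it holds an 8mer early in its 3′ UTR. Its levels were highest in immune cells and lowest in rod bipolar cells in both libraries, at 10.2 to 69.7 CPM (median 21.5) in the GFP-labelled library and 6.91 to 84.1 CPM (median 21.5) in the sponge-labelled library. In Müller glia it stood at 32.9 CPM (29.7 to 36.4) in the GFP-labelled library and 61.0 CPM (57.7 to 64.4) in the sponge-labelled library, a ratio of 0.89 (0.72 to 1.06). In cluster 3 it stood at 20.8 and 29.0 CPM (0.48, 0.18 to 0.78) and in cluster 8 at 56.2 and 78.7 CPM (0.48, 0.27 to 0.71), so both clusters had intervals above 0 at a smaller ratio than the joined class. Endothelial cells had 30.4 CPM (25.1 to 36.6) in the GFP-labelled library and 56.4 CPM (49.0 to 64.7) in the sponge-labelled library (0.89, 0.55 to 1.23), with no overlap, although the ratio was 0.22 with each cell thinned to 1000 UMIs. T and NK cells (0.88, 0.13 to 1.70), rods (0.34, 0.05 to 0.65) and fibroblasts (0.33, 0.08 to 0.57) also lay above 0. Rod bipolar cells lay below 0, at 10.2 and 6.91 CPM (-0.56, -1.02 to -0.09), but within the finer clusters described for Bcl2 the ratios were -0.11, -0.75 to 0.49 in the one mostly of the GFP-labelled library and 0.16, -1.13 to 2.25 in the other, both of which hold 0. Cones gave 15.3 and 8.40 CPM from 23 and 15 counts, a ratio of -0.85 (-1.91 to 0.13) that holds 0. In RPE the ratio was -0.16 (-0.53 to 0.20). Gna13 (r = 0.914) and Rab8b (0.905) had the levels most like it.

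Xiap (ENSMUSG00000025860, chrX:42059679-42109656) encodes the X-linked inhibitor of apoptosis, which blocks caspases directly. It was the gene with the fewest classes above 0. Rods had 493 CPM (478 to 509) in the GFP-labelled library and 608 CPM (596 to 621) in the sponge-labelled library, a log2 ratio of 0.30 (0.25 to 0.36), and cones 467 and 532 CPM (0.19, 0.05 to 0.33). In the other 12 classes the ratio was below 0, and in 11 of them the whole interval was. Ocular surface epithelium had 173 CPM (164 to 183) in the GFP-labelled library and 92.0 CPM (86.8 to 97.4) in the sponge-labelled library, the lowest ratio at -0.91 (-1.03 to -0.80). Rod bipolar cells had 281 and 164 CPM (-0.77), fibroblasts 252 and 152 CPM (-0.73), T and NK cells 289.7 and 181 CPM (-0.68) and Müller glia 279 and 175 CPM (-0.67). Melanocytes had 240.4 and 155 CPM (-0.63), RPE 179.5 and 121 CPM (-0.57), cone bipolar cells 280.3 and 200.2 CPM (-0.49) and the microglia and macrophage class 261 and 188 CPM (-0.47). Endothelial cells had 307 and 234 CPM (-0.39), cluster 9 257 and 198 CPM (-0.38) and pericytes and smooth muscle 283 and 253 CPM (-0.16, -0.37 to 0.05), the class whose interval held 0. The same direction was found within Müller cluster 3, at 292 and 188 CPM (-0.64, -0.73 to -0.54), and cluster 8, at 255 and 172 CPM (-0.57, -0.69 to -0.45).

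Rod transcripts moved with this pattern in 13 of the 14 classes. The genes whose levels were most like Xiap over the 28 class and library values included Sag (rod arrestin, r = 0.976) and Samd7 (0.974), both photoreceptor genes. In the 12 classes other than photoreceptors, all 9 rod markers were counted (none at 0) and all 9 were lower in the sponge-labelled library in every class, with a summed level of 3353 to 8706 CPM in the GFP-labelled library and 1329 to 5777 CPM in the sponge-labelled library. In rods the sum was 16652 and 19901 CPM. Cones went the other way, with rod markers at 12765 and 11629 CPM (-0.13) and a Xiap ratio of 0.19. Over the 14 classes the log2 ratio of Xiap and that of the 9 rod markers had a Pearson r of 0.947 and a Spearman rho of 0.899. Without the classes at either end (rods and ocular surface epithelium) r was 0.898, and over the 12 classes other than photoreceptors it was 0.875. The points share their 2 libraries and thereby any free rod RNA, so this is a description. How far rod RNA in the droplets of other cells sets the Xiap level there was not tested.

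**Figure D4:**
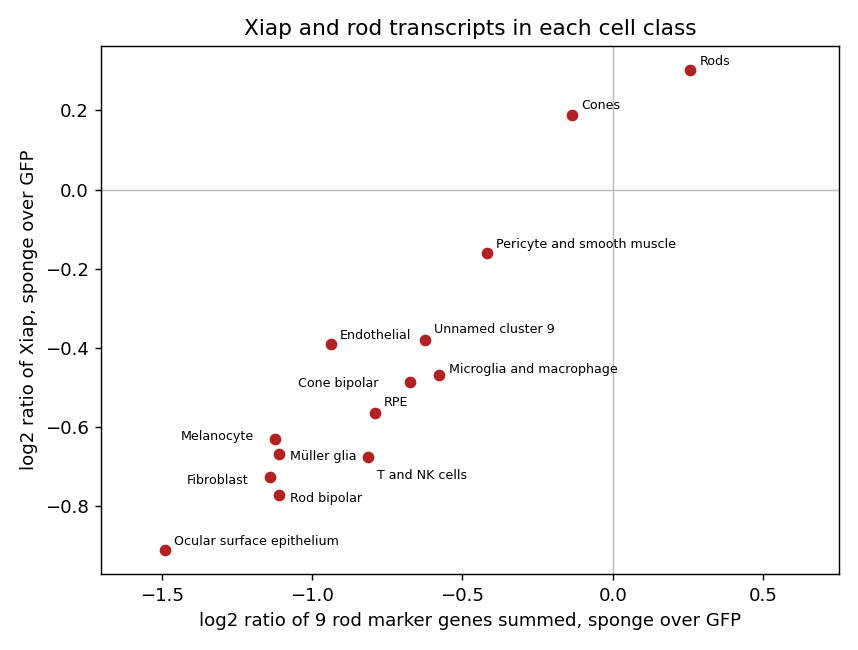
Log2 ratio of Xiap (vertical axis) against the log2 ratio of 9 summed rod marker genes (horizontal axis), sponge-labelled over GFP-labelled library, 1 point per class. Xiap is below 0 in the 12 classes that are not photoreceptors, and rods, at the upper right, have both values above 0.

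Set against the seed matches printed above, the genes with a match had the lower median ratio in 9 of the 14 classes and the higher one in 5. The 6 genes with a match of 7 or 8 bases in any annotated 3′ UTR (Nrf1, Bcl2, Mcl1, Bcl2l11, Xiap and Atg5) had a median log2 ratio of 0.12 over their 84 gene by class values, with 53 above 0. The 4 genes without one (Cox11, Coq10b, Prdx3 and Park7) had a median of 0.31 over 55 values, with 46 above 0. Of all measured gene by class ratios, 49.6% were above 0, with a median of -0.01. In RPE the medians were -0.10 and 0.59 for genes with and without a match, beside -0.19 for all genes. In Müller glia they were 0.11 and 0.40 (0.05 for all genes), and in fibroblasts 0.19 and 0.58 (-0.02 for all genes). Rods (0.40 and 0.04), endothelial cells (0.42 and 0.02), pericytes and smooth muscle (0.40 and -0.01), T and NK cells (0.45 and 0.29) and the microglia and macrophage class (0.22 and 0.18) had the higher median in genes with a match. The all-gene medians of these 5 classes were, in the same order, 0.08, 0.02, 0.05, 0.08 and -0.09. Within the matched group, the genes with 2 copies of the 7mer-m8 were unlike each other: Atg5 was above 0 in 13 classes and Xiap in 2. The 2 genes with an 8mer, Bcl2 and Bcl2l11, ran from -0.95 to 1.76 and from -0.85 to 0.89 over the classes. The groups hold only 6 and 4 genes, and no test was made of them.

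RPE cells were also chosen without clustering, as cells with at least 3 of the 5 markers Rpe65, Rgr, Rdh5, Lrat and Best1, which serve the visual cycle and ion transport of the RPE. This took 1838 cells of the GFP-labelled library and 895 of the sponge-labelled library, of which 941 and 433 lay in the RPE cluster and the rest in other clusters. Best1 was counted at 1.2 and 1.3 CPM in cells without eGFP, so the choice rests on the other 4 markers. Ocular surface markers were present and unequal in these cells: all 6 were higher in the sponge-labelled library, and their sum stood at 351 and 2416 CPM, with none at 0. Of the 10 genes, 7 had ratios above 0 in these cells, where 44.4% of all measured genes did, and the median was 0.29 against -0.06 for all genes. Coq10b, at 69.5 CPM (64.8 to 74.4) in the GFP-labelled library and 111 CPM (106 to 117) in the sponge-labelled library (0.68, 0.56 to 0.81), was at least 1.5-fold higher (11.2% of all genes), and none of the 10 was 1.5-fold lower (13.6%). Park7 (264 and 378 CPM, ratio 0.51, 0.45 to 0.58), Prdx3 (18.3 and 26.2 CPM, ratio 0.51, 0.26 to 0.77), Cox11 (16.9 and 22.8 CPM, ratio 0.43, 0.17 to 0.70) and Mcl1 (103 and 134 CPM, ratio 0.38, 0.27 to 0.49) had intervals above 0. Xiap (214 and 147 CPM, ratio -0.54, -0.63 to -0.46) and Nrf1 (56.5 and 45.5 CPM, ratio -0.31, -0.48 to -0.15) had intervals below 0, and those of Bcl2, Bcl2l11 and Atg5 held 0. The Nrf1 ratio turned to 0.13 with cells thinned to 1000 UMIs and to 0.03 as a mean over cells. Restricting to marker-positive cells of the RPE cluster brought the median to 0.05, and at least 4 markers brought it to 0.07. In the whole RPE cluster the ratios of Coq10b and Mcl1 were 0.07 and -0.04, while Park7 (0.66), Prdx3 (0.66) and Cox11 (0.53) were as high or higher there.

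Within the sponge-labelled library, marker-positive RPE cells with at least 1 eGFP UMI were compared with those without. There were 174 with and 721 without, 19.4% of the 895 (exact interval 16.9% to 22.2%), against 2.04% of rods in the same library (1.69% to 2.44%), where median depth was 2340.0 UMIs. In the GFP-labelled library, 8 of 1838 (0.435%) held an eGFP UMI, too few to split. The sets came from the same library, but they differ in depth and in the markers of other classes. Median UMIs were 17604.5 with eGFP and 5090.0 without, and eGFP is seen more easily in deep cells. The 6 ocular surface markers, led by Krt12, summed to 3432 CPM in cells without eGFP and 56.7 CPM in cells with it. Of the 10 genes, 4 were above 0 in cells with eGFP (35% of all measured genes were), and the median ratio was -0.27 beside -0.24 for all genes. Bcl2l11, at 30.8 CPM (27.3 to 34.7) in cells without eGFP and 13.3 CPM (9.97 to 17.5) in cells with it (-1.20, -1.66 to -0.78), was the member at least 1.5-fold lower (31.8% of all genes were), and none was 1.5-fold higher (8.49%). Thinned to 1000 UMIs per cell, the Bcl2l11 ratio was 0.09.

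The values were then taken in marker-positive cells of the RPE cluster alone, an alternative chosen after seeing the data, which holds 140 cells with eGFP and 293 without. Ocular surface markers then summed to 74.5 CPM without eGFP and 54.4 CPM with it. Depth stayed unequal (medians of 21243.0 UMIs with eGFP and 2866.0 without), and so did melanocyte markers (1573 CPM without and 569 with, lower for 6 of 6), rod markers (2210.3 and 1446, lower for 9 of 9) and haemoglobin and other red cell genes (1086 and 25.4, lower for 5 of 5). Cd74, a gene of antigen presentation, went the other way, at 353 CPM without eGFP and 1578 CPM with it. The RPE transcript Ttr stood at 52959 CPM without and 38501 CPM with eGFP. The part of all these differences in the values was not tested. The median of the 10 genes was 0.10, with 6 of 10 above 0 beside 49% of all genes, 1 at least 1.5-fold lower (9.34% of all genes) and none as much higher (6.94%). Bcl2 stood at 40.2 CPM (33.9 to 47.3) in cells without eGFP and 57.4 CPM (49.6 to 66.1) in cells with it, a log2 ratio of 0.51 (0.20 to 0.84), as it was in the full set (0.40, 0.16 to 0.63). Coq10b and Mcl1 turned from below 0 in the full set (-0.43 (-0.61 to -0.26) and -0.53 (-0.70 to -0.37)) to above it within the cluster (0.39 (0.12 to 0.66) and 0.29 (0.06 to 0.53)). Bcl2l11 stayed below 0, at 21.1 CPM (16.6 to 26.4) in cells without eGFP and 12.0 CPM (8.54 to 16.3) in cells with it (-0.81, -1.41 to -0.25). No thinned value is given for it within the cluster, and in the full set thinning turned it to 0.09. Xiap also stayed below 0 (-0.26, -0.46 to -0.06). Cox11 lay below 0 (-0.48, -0.95 to -0.02), where its interval in the full set had held 0 (-0.20, -0.60 to 0.17). Park7, which was higher in cells with eGFP in the full set (0.45, 0.36 to 0.53), stood at 532 CPM without and 506 CPM with eGFP in the cluster (-0.07, -0.17 to 0.02). Nrf1 (0.01, -0.39 to 0.42), Prdx3 (0.24, -0.18 to 0.66) and Atg5 (0.19, -0.18 to 0.55) did not differ beyond counting error.

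**Figure D5:**
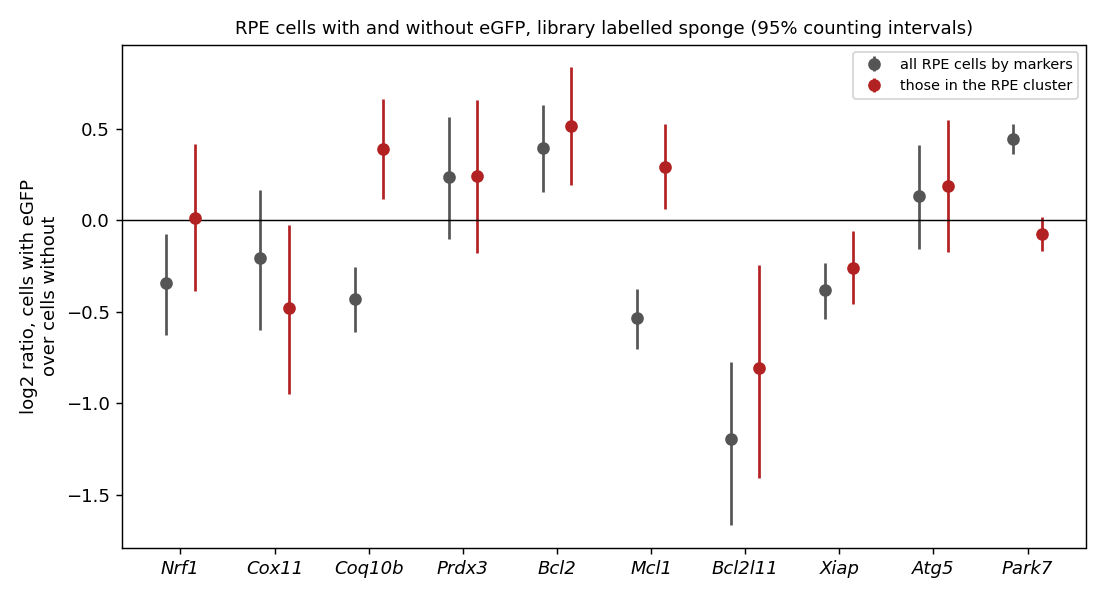
Log2 ratio of each gene in RPE cells with eGFP over those without, in the sponge-labelled library, for all marker-positive cells (grey) and for those in the RPE cluster (red), with 95% counting intervals. Bcl2 is above 0 and Bcl2l11 below 0 in both sets, while Coq10b and Mcl1 lie on opposite sides of 0.

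The Park7 ratio between the libraries was as large among cells without eGFP. In RPE-cluster cells without eGFP, Park7 stood at 329 CPM in the GFP-labelled library and 532 CPM in the sponge-labelled library (0.69, 0.61 to 0.78). In the same comparison the RPE transcript Ttr stood at 33678 and 52959 CPM (ratio 0.65), the antigen presentation gene Cd74 at 62.2 and 353 CPM and Krt12 at 11 and 33.5 CPM. Median depth was 6583.0 and 2866.0 UMIs and the median ratio of all genes was -0.18, and the part of these in the Park7 ratio was not tested. Cox11 (0.71, 0.31 to 1.10) and Prdx3 (0.57, 0.17 to 0.97) were also higher, and Nrf1 (-0.59, -0.92 to -0.28) and Xiap (-0.43, -0.59 to -0.28) lower, in these cells. Bcl2 (-0.24, -0.53 to 0.05) was not. A cell without an eGFP UMI may still have carried the vector, since 1 eGFP UMI is missed more often at low depth.

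The pathways around the 10 genes were described in the marker-positive RPE cells, leaving the 10 genes themselves out, beside 44.4% of all genes above 0 and a median of -0.06. The peroxide and superoxide defence genes around Prdx3 and Park7 had 13 of 16 members above 0 and a median of 0.40, and 6 were at least 1.5-fold higher, beside 11.2% of all genes. Ocular surface markers moved with these lists in the marker-positive cells, at 351 and 2416 CPM, and their part was not tested. Among the defence genes the peroxiredoxins Prdx5 stood at 183 and 365 CPM and Prdx6 at 228 and 418 CPM, while superoxide dismutase Sod1 stood at 254 and 204 CPM and catalase (Cat) at 80.7 and 72.8 CPM. Coenzyme Q synthesis, the pathway of Coq10b, had 10 of 13 above 0 and a median of 0.41, with Coq2 at 25.7 and 38.1 CPM, Coq9 at 22.0 and 32.1 CPM and Pdss2, which builds the side chain, at 59.0 and 53.0 CPM. Assembly factors of cytochrome c oxidase, among which Cox11 belongs, had 14 of 21 above 0 (median 0.17), with Coa3 at 92.9 and 138 CPM and the copper chaperone Cox17 at 228 and 132 CPM. Regulators of mitochondrial biogenesis, the group of Nrf1, were split at 9 of 19 (median 0.00), with Esrra at 9.34 and 13.7 CPM and Ppargc1b at 52.8 and 36.8 CPM.

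The BCL2 family without its 3 members described above had 11 of 17 above 0 (median 0.04), with 5 at least 1.5-fold higher (11.2% of all genes) and 3 at least 1.5-fold lower (13.6%), among them the death-promoting Bok at 2.8 and 9.73 CPM and Bik at 1.87 and 4.09 CPM. In the sponge-labelled library Bok and Bik stood at 13.5 and 5.63 CPM in cells without eGFP and at 1.03 and 0.513 CPM in cells with it, the side on which the ocular surface markers were also low. Inhibitors of apoptosis and caspases, the group of Xiap, had 10 of 16 above 0 (median 0.12), with Xaf1, an interferon-induced antagonist of XIAP, at 16.5 and 36.6 CPM and Birc6 at 212 and 176 CPM. Autophagosome genes, the group of Atg5, had 16 of 30 (median 0.04), with the membrane proteins Map1lc3a at 178 and 274 CPM and Gabarap at 223 and 331 CPM and the scaffold Atg16l1 at 47.9 and 33.1 CPM. Mitophagy genes had 7 of 12 (median 0.05), with Fkbp8 at 39.6 and 66.9 CPM. The genes that make and use microRNAs had only 3 of 13 above 0 and a median of -0.31, with the silencing scaffold Tnrc6b at 370.2 and 277 CPM, the microprocessor subunit Dgcr8 at 19.0 and 12.7 CPM and Prkra, a Dicer partner, at 18.3 and 25.9 CPM. In rods the same machinery had 12 of 13 above 0 (median 0.24), beside 56.9% of all genes there.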

How the data were processed

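Transcripts were measured in 2 single-cell libraries of the mouse optic cup, 1 per vector. The deposited values are UMI counts per gene and barcode, made by the authors with Cell Ranger 7.0.0 against mm10, per the submitters' processing notes. The calling of cells from barcodes and the handling of intronic reads are not given in the sources used here.

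Barcodes under 300 genes, under 500 UMIs or over 25% mitochondrial UMIs were removed. No doublets were called or removed, and the 287 kept barcodes found in both libraries were kept. Cells of both libraries were clustered together with scanpy 1.11.5 (counts scaled to 10000 per cell, 2000 variable genes, 30 components, 15 neighbours, Leiden resolution 1), which gave 28 clusters. A cluster was named where at least 3 markers of a class stood at 2-fold or more over the median cluster, where a second unrelated class scored under 0.5 of the first, and where no other class led its top 10 genes. This naming was settled after the clusters were seen.

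For each class, the counts of a library's cells were added up and expressed as CPM. Log2 ratios add 0.5 to each sum. Intervals are 95% exact Poisson for CPM and exact binomial (Clopper-Pearson) for ratios and shares. They cover counting error only and were tested on simulated data. Cells are not replicates and each group is 1 library, so no p-value was computed. The 10 genes are described in every class with at least 50 cells per library. From each pathway list the text draws on the genes highest and lowest by the interval bound nearest to 0, and for likeness on the 3 genes with the highest correlation among those with at least 20 counts in every class. The members, markers and lists were chosen with earlier results of these data known. Seed matches were read from the annotated 3′ UTRs of GENCODE M21. Some of the genes these rules name are not reported here.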

Additional observations from a re-analysis of the deposited data

Results flagged for a closer look

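For 5 of the 10 genes, the log2 ratio of the sponge-labelled over the GFP-labelled library had a counting interval wholly above 0 in at least 1 class and wholly below 0 in at least 1 other, and the distance between the highest and the lowest class is given here. With 1 library per vector, none of these differences was tested. For Nrf1 rods stood above 0 and RPE below it, 1.09 apart. For Cox11 cluster 9 and the ocular surface epithelium were 1.38 apart. For Bcl2 the T and NK class and rod bipolar cells were 2.71 apart, although the rod bipolar value was 0.17 in 1 finer cluster and -1.54 in another. For Bcl2l11 Müller glia and cones were 1.74 apart, although the interval of the cone value holds 0. For Xiap rods and the ocular surface epithelium were 1.21 apart. Both Cox11 values changed sign when cells were thinned to 1000 UMIs, and the Nrf1 value in RPE turned from -0.57 to 0.19.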

How the results depend on the processing

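No paired analysis was possible because each vector has 1 library and the cells are not assigned to animals. Of the summary values over the 10 genes, 53 values under other settings stayed near the reported ones and 5 moved. The median ratio in RPE cells chosen by markers was 0.29 as reported, 0.0665 with at least 4 markers, 0.0537 in cells that also lay in the RPE cluster and 0.0536 over the whole RPE cluster. The median of RPE cells with eGFP over those without was -0.27 as reported, 0.0714 with at least 4 markers and 0.10 in the RPE cluster. The settings tied to the RPE cluster, and leaving out shared barcodes, were chosen after seeing the data. Among single gene values, 1097 stayed and 187 moved, but the settings were unlike each other. Thinning to 1000 UMIs moved 60 values, reversed 3 and left 86. A minimum count of 50 left all 155 of its values in place, and leaving out shared barcodes left 158 and moved 1. The pooled count is therefore no measure of how the values hold up to depth. Of 710.0 values under other settings whose reported interval lay off 0, 21 changed sign, in 13 gene and class pairs. Of those reported at 1.5-fold or more, 3 changed sign, all with cells thinned to 1000 UMIs: Cox11 in ocular surface epithelium (0.40 from -0.70), Cox11 in cluster 9 (-0.14 from 0.68) and Bcl2l11 with over without eGFP (0.0858 from -1.20). The cause was not tested. Thinning left out 881 shallower cells of the GFP-labelled library and 1220.0 of the sponge-labelled library. Low counts limit Cox11, Prdx3 and Bcl2l11 most.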
